A study of Mus musculus with 18 samples.

Results

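The transcripts followed here encode core parts of the first embryonic basement membrane, or a protein that binds its collagen, and were measured in Oct4 null and wild type mouse embryos. They are the laminin chain genes Lama1 (ENSMUSG00000032796), Lamb1 (ENSMUSG00000002900) and Lamc1 (ENSMUSG00000026478), the collagen IV chain genes Col4a1 (ENSMUSG00000031502) and Col4a2 (ENSMUSG00000031503), and Sparc (ENSMUSG00000018593). They were taken by name, 6 of the 8202 genes present in at least 1 of the 3 deposited tables. The rule uses no measured value, but the list was drawn up with earlier results of these data known. All 6 had a row at E3.75 and at E4.5, and 4 of 6 had one at E2.5, where Lama1 and Sparc were not analysed. Each table holds only genes that reached about 10 CPM in at least 3 of its 6 libraries, so a transcript low in both genotypes could not appear.

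The groups were Oct4 -/- embryos and Oct4 +/+ embryos of the CD1 strain, 3 libraries each at E2.5, a stage that precedes the blastocyst, at E3.75, when the blastocyst has formed, and at E4.5, close to implantation, so 6 groups, and by its title the series looks for genes that need Oct4 in vivo. Whole embryos were flushed from the oviduct or uterus without treatment, so every library mixes the RNA of all cell types that an embryo held. RNA was primed with oligo(dT) and amplified next to the poly(A) tail, which places most reads close to the 3′ end of a transcript. The series text gives 3 embryos per group, and p-values below measure only the spread between these libraries. The labels do not describe the Oct4 allele.

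A basement membrane is a thin sheet of matrix under an epithelium. Laminin, a cross-shaped trimer of an alpha, a beta and a gamma chain, forms its first polymer, and Lama1, Lamb1 and Lamc1 encode the trimer that is known as the first laminin of the mouse embryo. Collagen IV, a trimer of chains encoded by Col4a1 and Col4a2, forms a second network that stabilises the sheet, and SPARC is a secreted glycoprotein that binds collagen IV. In the blastocyst the primitive endoderm is known as a strong source of these proteins, and its parietal derivative lays down the thick Reichert's membrane.

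Pou5f1, which encodes Oct4, lay below the wild type libraries in the null libraries of every stage, at 51.6%, 50.6% and 48.3% of the wild type mean in order of stage. Reads at a 3′ end may lie outside a deleted part, so this checks the labels only if the deletion reaches them. Libraries held 364936 reads (Oct4 null library 1 of E4.5) to 1922432 reads, and null libraries were the deeper ones by their median. That median was 1917754 reads in null and 916720 in wild type libraries at E2.5, 1375610 in null and 576078 in wild type libraries at E3.75, and 1314657 in null and 543033 in wild type libraries at E4.5. Every library numbered 3, and C at E4.5, could be approximated by mixing libraries 1 and 2 of its group, to within 0.984 to 1.22 times sampling variance, against 1.11 to 2.77 times for the 12 others, and in each group it came closest to such a mix. In these mixes library 1, or A, had a weight of 0.23 to 0.57. Each of the 12 others was fitted best by library 3, or C, of its group alone. If the 6 libraries numbered 3 or C are mixes, an n of 3 is too high and p-values may be too small. Whether these 6 are independent was not tested, and a call that changes without them is also given with the first 2 libraries of each group. The header does not number the wild type columns of E4.5, here called A, B and C.

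At E3.75 5 of the 6 transcripts passed the test between genotypes. Lama1, Lamb1, Lamc1 and Sparc were lower in Oct4 null embryos and Col4a1 was higher, while Col4a2 did not pass. Across all 6648 genes of that stage 8.2% passed, 3.6% higher and 4.6% lower in null embryos. The median log2 difference was -0.85 over the 6 members and -0.04 over all genes. With TMM scaling the genes that passed divided into 287 higher and 216 lower, against 239 higher and 306 lower on the deposited scale, and the members' directions were the same. In edgeR on recovered reads the same 5 members passed, as did 8.3% of genes. With the first 2 libraries of each group alone, 2 of the 6 passed, Lama1 and Lamb1, as 155 genes did in all. Each difference is in log2(CPM + 1), null minus wild type, tested with limma and Benjamini-Hochberg adjustment over every gene of the stage at a threshold of 0.05. Fewer cells of a type and less RNA per cell cannot be told apart in such libraries.

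**Figure D1:**
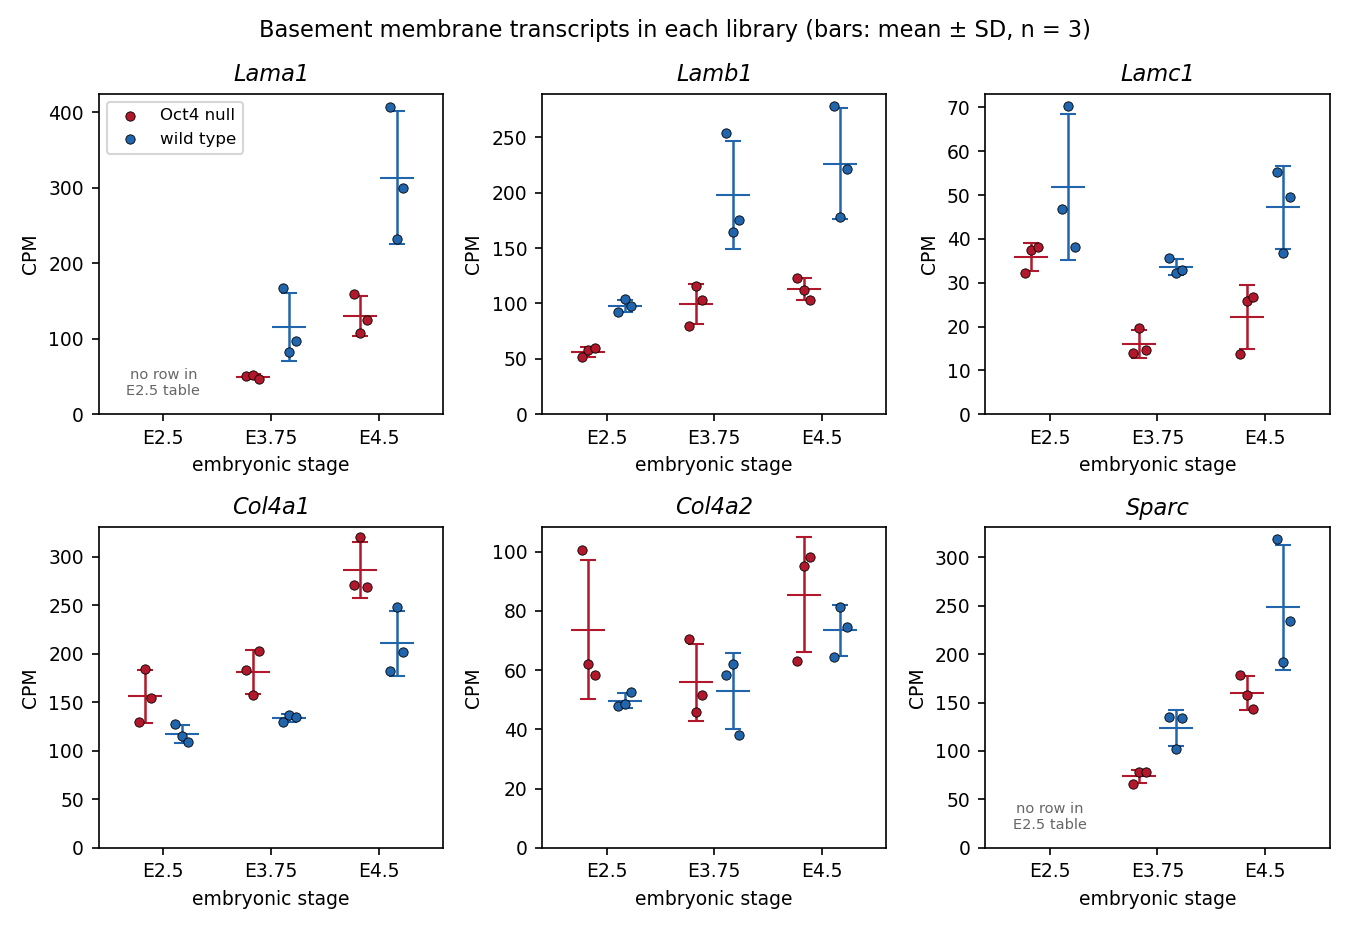
Level of each of the 6 transcripts in CPM (vertical axis, from 0, scaled per panel) in every library at each of 3 stages (horizontal axis), with Oct4 null libraries in red on the left of each pair and wild type libraries in blue on the right. Points are libraries and bars the mean ± SD (n = 3). Null libraries lie below wild type libraries for Lama1, Lamb1, Lamc1 and Sparc, above them for Col4a1, and among them for Col4a2 at E3.75 and E4.5.

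All 3 laminin chain transcripts fell in null embryos at E3.75. Lamb1, the beta chain, was measured at all 3 stages. At E2.5 it had 51.4, 58.3 and 60.0 CPM in null libraries, against 92.7, 103.7 and 97.3 CPM in wild type libraries. Null libraries were all below wild type libraries, by a gap of 32.8 CPM. The log2 difference was -0.78 (SE 0.16, 95% interval -1.13 to -0.43), with an adjusted p of 0.0555 in limma, rank 52 of 7082 genes by p, so Lamb1 did not pass at E2.5 on the deposited scale. It did pass there with TMM scaling (adjusted p = 0.0485, limma), in edgeR (adjusted p = 0.0387) and in DESeq2 (adjusted p = 0.0161), and not with the first 2 libraries of each group (0.667), thinned reads (0.0965) or a replicate block (0.0821). Without 1 library its adjusted p ranged from 0.013 to 0.288 (limma).

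At E3.75 Lamb1 had 79.8, 115.6 and 102.9 CPM in null libraries, against 253.9, 164.7 and 175.3 CPM in wild type libraries. The null mean of 99.4 ± 18.2 CPM was 50.2% of the wild type mean of 198 ± 48.7 CPM (SD, n = 3 each), a log2 difference of -0.98 (95% interval -1.32 to -0.63, adjusted p = 0.000738, limma). Lamb1 passed at this stage under every one of 17 alternatives run for it, the omission of each library included. At E4.5 it had 123.3, 111.8 and 103.5 CPM in null libraries, against 278.1, 178.4 and 221.4 CPM in wild type libraries A, B and C. Again no library overlapped between genotypes, and the null mean was 50.0% of the wild type mean. The difference of -0.98 (95% interval -1.35 to -0.60) had an unadjusted p of 0.000131 and an adjusted p of 0.125 (limma), rank 6 of 6545 genes.

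Lama1, the alpha chain that carries the main receptor-binding domains of the trimer, was the member with the lowest null level relative to wild type. At E3.75 it had 50.9, 52.3 and 46.6 CPM in null libraries, against 167.4, 83.2 and 97.2 CPM in wild type libraries. The null libraries were close to one another, and the wild type libraries were spread, with library 1 highest for Lama1 as it was for Lamb1. The null mean was 43.1% of the wild type mean (49.9 ± 2.98 against 116 ± 45.1 CPM, SD, n = 3 each), a log2 difference of -1.13 (SE 0.21, 95% interval -1.56 to -0.71, adjusted p = 0.00144, limma). Lama1 too passed under all 17 alternatives run at E3.75, with adjusted p from 0.000554 to 0.00758 (limma) when 1 library was left out. At E4.5 it had 158.9, 107.3 and 125.1 CPM in null libraries, against 407.0, 232.7 and 300.5 CPM in wild type libraries A, B and C. The lowest wild type library stood 73.7 CPM above the highest null library. The difference was -1.24 (95% interval -1.69 to -0.79), with an unadjusted p of 7.45e-05 and an adjusted p of 0.125 (limma), rank 3 of 6545 genes.

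Lamc1, the gamma chain shared by most laminin trimers, had the fewest reads of the 3 chains, from 5 to 73 per library. At E2.5 it had 32.3, 37.5 and 38.1 CPM in null libraries, against 46.9, 70.3 and 38.1 CPM in wild type libraries. The genotypes were separated there by 0.0334 CPM only, less than the worth of 1 read, and the log2 difference of -0.47 (95% interval -1.01 to 0.07) had an adjusted p of 0.302 (limma). At E3.75 it had 13.9, 19.6 and 14.6 CPM in null libraries, against 35.7, 32.3 and 33.0 CPM in wild type libraries. Both groups were tight and did not overlap, and the null mean was 47.6% of the wild type mean (-1.04, 95% interval -1.61 to -0.47, adjusted p = 0.0208, limma). That call was lost without null library 1 (adjusted p = 0.0807), null library 3 (0.0918) or wild type library 3 (0.0678), and with the first 2 libraries of each group (0.204, limma in each case). At E4.5 Lamc1 had 13.7, 25.9 and 26.8 CPM in null libraries, against 55.2, 36.8 and 49.6 CPM in wild type libraries A, B and C. No library overlapped, though the lowest null value rests on 5 reads, and the difference of -1.10 had an adjusted p of 0.169 (limma).

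The RefSeq window around the start of Lamb1, from 250 bases before to 50 bases after it, is shown because Lamb1 is the one laminin gene among the members for which a window was held. It lies at chr12:31265043-31265342 on the plus strand of GRCm38.p6, and none was held for Lama1 or Lamc1. Capitals mark a CCAAT box (CCAAT) and 2 GC boxes (GGGCGG, here on the opposite strand), the only motifs found of those searched on both strands.
Lamb1: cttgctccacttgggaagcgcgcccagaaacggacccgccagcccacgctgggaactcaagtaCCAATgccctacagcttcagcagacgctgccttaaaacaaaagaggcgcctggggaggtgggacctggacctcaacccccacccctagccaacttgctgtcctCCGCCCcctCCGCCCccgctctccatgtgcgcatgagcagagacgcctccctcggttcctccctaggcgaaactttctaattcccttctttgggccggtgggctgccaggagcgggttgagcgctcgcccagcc
The CCAAT box lies 187 bases before the start and the GC boxes 84 and 75 bases before it. CCAAT was in 37.4% and GGGCGG in 35.7% of 32851 RefSeq windows of this length. The octamer ATGCAAAT, part of the known Oct4 site, was in 1.74% of windows, the GATA motifs AGATAA and TGATAA in 11.2% and 9.05%, and the SOX motif ATTGTT in 10.7%. None of these 4 was in the window of Lamb1, Col4a1, Col4a2 or Sparc.

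Sparc encodes the collagen-binding glycoprotein and fell with the laminins at E3.75. It had 65.9, 77.8 and 77.9 CPM in null libraries, against 135.4, 101.9 and 133.7 CPM in wild type libraries. The 2 ranges lay 24.0 CPM apart, and the null mean was 59.7% of the wild type mean (73.9 ± 6.90 against 124 ± 18.9 CPM, SD, n = 3 each). The log2 difference was -0.73 (95% interval -1.06 to -0.39, adjusted p = 0.00683, limma), and it missed the threshold without wild type library 3 (adjusted p = 0.0527) and with the first 2 libraries of each group (adjusted p = 0.104). At E4.5 Sparc had 178.1, 157.5 and 143.7 CPM in null libraries, against 318.6, 192.0 and 234.3 CPM in wild type libraries A, B and C. Null libraries were again all below wild type libraries, with a difference of -0.61 (95% interval -1.0 to -0.21), an unadjusted p of 0.0061 and an adjusted p of 0.182 (limma).

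Col4a1, the more abundant chain of the collagen IV trimer, went the other way, with null libraries above wild type libraries at each stage. At E2.5 it had 130.0, 184.7 and 154.9 CPM in null libraries, against 127.6, 115.2 and 109.4 CPM in wild type libraries, a gap of 2.34 CPM. At E3.75 it had 183.8, 157.7 and 203.1 CPM in null libraries, against 129.8, 136.7 and 135.4 CPM in wild type libraries. The null mean was there 35.5% higher than the wild type mean (182 ± 22.8 against 134 ± 3.69 CPM, SD, n = 3 each), and the log2 difference of 0.43 (95% interval 0.16 to 0.70) passed narrowly (adjusted p = 0.0458, limma). Col4a1 is the least stable of the 5 calls. It was lost when null library 1 (adjusted p = 0.146), null library 3 (0.29), wild type library 1 (0.0681), 2 (0.0571) or 3 (0.115) was left out, and with the first 2 libraries of each group (0.501) or reads thinned to equal depth (0.145), and in a joint fit with the E4.5 libraries (0.0796). At E4.5 it had 271.3, 320.2 and 268.8 CPM in null libraries, against 182.3, 248.2 and 202.1 CPM in wild type libraries A, B and C. The differences at E2.5 (0.40, adjusted p = 0.175, limma) and E4.5 (0.45, adjusted p = 0.2, limma) were of about the same size and did not pass.

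Col4a2, the second chain of the trimer, did not pass at any stage. At E2.5 it had 100.6, 61.9 and 58.4 CPM in null libraries, against 48.0, 48.4 and 52.7 CPM in wild type libraries. Null library 1 stood far above the others, and the genotypes did not overlap (0.52, 95% interval 0.03 to 1.00, adjusted p = 0.219, limma). At E3.75 it had 70.5, 45.8 and 51.5 CPM in null libraries, against 58.3, 62.0 and 38.2 CPM in wild type libraries, and at E4.5 63.0, 95.1 and 98.3 CPM in null libraries, against 64.5, 81.4 and 74.4 CPM in wild type libraries A, B and C. The groups overlapped at both stages. The differences of 0.09 (95% interval -0.37 to 0.54, adjusted p = 0.856, limma) and 0.20 (-0.26 to 0.65, adjusted p = 0.67, limma) leave room for a rise as large as that of Col4a1 and for a small fall.

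The 2 collagen IV genes lie head to head on mouse chromosome 8, and their start regions are shown because 1 of the pair passed the test and the other did not. In RefSeq (GRCm38.p6) the start of Col4a1 (minus strand) is 21 bases from that of Col4a2 (plus strand). The window of Col4a1 is chr8:11312777-11313076 and that of Col4a2 chr8:11312555-11312854, and the capitals mark the 78 bases that they share, read from opposite strands.
Col4a1: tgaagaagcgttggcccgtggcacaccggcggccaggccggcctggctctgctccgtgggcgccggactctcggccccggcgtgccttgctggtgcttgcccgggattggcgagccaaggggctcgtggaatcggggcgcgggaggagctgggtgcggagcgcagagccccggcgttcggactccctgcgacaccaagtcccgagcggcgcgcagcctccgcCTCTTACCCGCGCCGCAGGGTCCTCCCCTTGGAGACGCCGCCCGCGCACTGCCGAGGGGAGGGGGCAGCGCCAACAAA
Col4a2: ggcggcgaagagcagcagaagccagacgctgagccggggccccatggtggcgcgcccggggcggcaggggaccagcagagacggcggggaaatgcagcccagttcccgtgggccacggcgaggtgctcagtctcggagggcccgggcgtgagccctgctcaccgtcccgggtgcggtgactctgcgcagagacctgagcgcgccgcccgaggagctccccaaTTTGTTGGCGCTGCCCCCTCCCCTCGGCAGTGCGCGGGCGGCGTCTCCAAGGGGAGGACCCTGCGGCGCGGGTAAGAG
Both windows hold CCAAT and GGGCGG, and both are rich in G and C (74% and 73.7%) and in CpG pairs (37 and 33), against medians of 52.7% and 7 over all 32851 windows. Reads of this protocol come from the far 3′ ends, which lie at opposite ends of the pair.

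**Figure D2:**
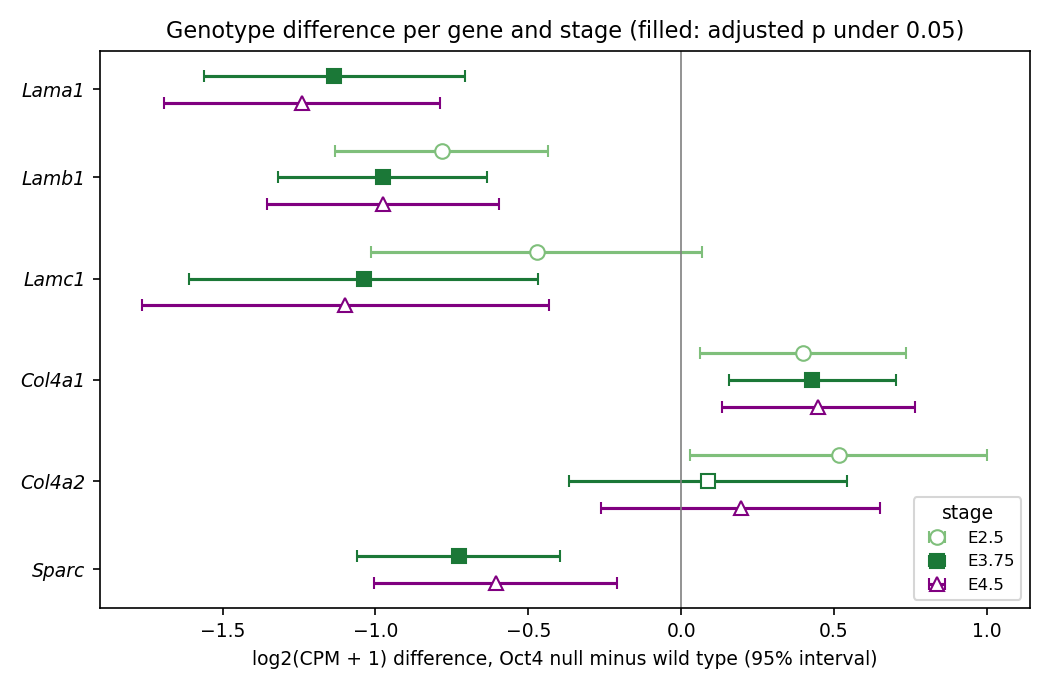
Difference between genotypes for each transcript and stage on the log2(CPM + 1) scale, Oct4 null minus wild type (horizontal axis), with its 95% interval. Circles are E2.5, squares E3.75 and triangles E4.5, and filled symbols passed at an adjusted p under 0.05 (limma). The 5 filled squares are Lama1, Lamb1, Lamc1 and Sparc below 0 and Col4a1 above 0, and the intervals of Col4a2 at E3.75 and E4.5 span 0.

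At E2.5 none of the 4 measured members passed in limma, where 0.593% of 7082 genes did, 0.409% higher and 0.184% lower in null embryos. At an unadjusted p under 0.05, 3 of the 4 did (Lamb1, Col4a1 and Col4a2), as did 20.4% of all genes, and 1 of the 4, Lamb1, passed in edgeR, as did 2.53% of the 7082 genes, and in DESeq2, as did 4.49% of the 5297 genes that it gave an adjusted p. Libraries of the 2 genotypes did not overlap for any of the 4, with Lamb1 and Lamc1 lower and Col4a1 and Col4a2 higher in null libraries. Among all genes 27.8% had no overlap, 14.1% lower and 13.6% higher in null libraries. The median difference over the 4 was -0.04, beside -0.02 over all genes, since laminin and collagen genes had opposite signs.

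At E4.5 none of the 6 members passed in limma, and none of the 6545 genes did (0%). At an unadjusted p under 0.05, 5 of the 6 did, all but Col4a2, as did 985 genes (15%). In edgeR on the recovered reads 42 genes (0.642%) passed, Lama1 (adjusted p = 0.0208) and Lamb1 (adjusted p = 0.0234) among them, and in DESeq2 112 genes passed (4.29% of the 2611 that it gave an adjusted p), with Lama1, Lamb1 and Sparc (adjusted p = 0.0264) among them. Null library 1 is the shallowest of all, and without it 120 genes passed in limma, with Lama1 (adjusted p = 0.0108) and Lamb1 (adjusted p = 0.0264) among them. Without overlap, 4 of the 6 members were lower and 1 was higher in null libraries, both at E4.5 and at E3.75. The shares of all genes were 9.99% lower and 12.2% higher at E4.5 (22.2% in all), and 15.7% lower and 11.4% higher at E3.75 (27.2% in all).

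Whether the genotype difference changed from one stage to the next was tested directly, over 12 libraries of 2 stages at a time, and no member passed. From E2.5 to E3.75 the difference of Lamb1 moved by -0.19 (95% interval -0.71 to 0.32, adjusted p = 0.752, limma), that of Lamc1 by -0.57 (-1.32 to 0.18, adjusted p = 0.453) and that of Col4a1 by 0.03 (-0.39 to 0.45, adjusted p = 0.961). Between those stages 1.54% of 5893 genes passed. From E3.75 to E4.5, where 0.204% of 5882 genes passed, the difference of Lamb1 moved by 0.00 (-0.54 to 0.54), that of Lama1 by -0.11 (-0.76 to 0.55) and that of Sparc by 0.12 (-0.39 to 0.63). These intervals are wide, so a failure to pass does not show that the difference was the same at both stages. From E2.5 to E4.5, where 0.105% of 5728 genes passed, the 4 members had adjusted p from 0.499 to 0.937 (limma).

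Levels of different stages come from tables that were scaled separately, so the course over time is a description. The mean of Lama1 at E4.5 was 2.61 times that at E3.75 in null embryos and 2.70 times in wild type embryos, and that of Sparc was 2.16 and 2.01 times. Both genes thus climbed by similar factors in either genotype, from unlike starting levels. The mean of Lama1 in null embryos at E4.5 (130 ± 26.2 CPM) lay within the range of wild type embryos at E3.75 (83.2 to 167.4 CPM). Lamb1 at E3.75 was 1.76 times its E2.5 mean in null embryos and 2.02 times in wild type embryos, and it changed little from E3.75 to E4.5, by factors of 1.14 in both genotypes.

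In the order of its 6 group means Lamb1 was lowest in E2.5 null embryos. Groups with overlapping libraries came next, E2.5 wild type, E3.75 null and E4.5 null, and E3.75 and E4.5 wild type embryos were highest and overlapped each other. The order for Lamc1 was E3.75 null, E4.5 null, E3.75 wild type, E2.5 null, E4.5 wild type and E2.5 wild type, and only E4.5 null and E3.75 wild type were neighbours without overlap. Unlike Lamb1, Lamc1 had a lower mean at E3.75 than at E2.5, at 0.446 times in null embryos and 0.65 times in wild type embryos. Col4a1 had its lowest mean in E2.5 wild type embryos and its highest in E4.5 null embryos, and both of these stood clear of their neighbours. The 4 groups between, E3.75 wild type, E2.5 null, E3.75 null and E4.5 wild type in rising order, each overlapped the next. Neighbours in the order of Col4a2 all overlapped, and none did for Sparc, which had the order E3.75 null, E3.75 wild type, E4.5 null and E4.5 wild type. Lama1 had the same order as Sparc, with overlap between E3.75 wild type and E4.5 null embryos.

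Ratios of 2 members, as log2 of CPM + 1 inside a library, depend little on how the library was scaled where both levels are far above 1 CPM. The log2 ratio of Lamb1 to Col4a1, chosen after their opposite signs were seen, was -1.44 ± 0.18 in null and -0.26 ± 0.17 in wild type libraries at E2.5 (SD, n = 3 each). It was -0.87 ± 0.38 in null and 0.53 ± 0.38 in wild type libraries at E3.75, and -1.34 ± 0.19 in null and 0.09 ± 0.54 in wild type libraries at E4.5. The difference was -1.18, -1.40 and -1.42 in order of stage. Since Lamb1 alone was below and Col4a1 alone above all wild type libraries at each stage, their ratio could not overlap, and it describes the size of the shift without adding evidence for it.

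Ratios among the laminin chains overlapped between genotypes in 4 of 5 comparisons. The log2 ratio of Lamb1 to Lamc1 differed between null and wild type libraries by -0.31, 0.06 and 0.12 in order of stage, with overlap each time. The ratio of Lama1 to Lamb1 differed by -0.16 at E3.75, with overlap, and by -0.26 at E4.5, without it (two-sided exact permutation p = 0.1, the smallest that 3 against 3 libraries can give, and 0.275 after adjustment over 11 ratios). For Col4a2 to Col4a1 the genotypes overlapped at every stage, with differences of 0.12, -0.34 and -0.25, and the sign at E2.5 rests on null library 1, without which it was -0.25.

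**Figure D3:**
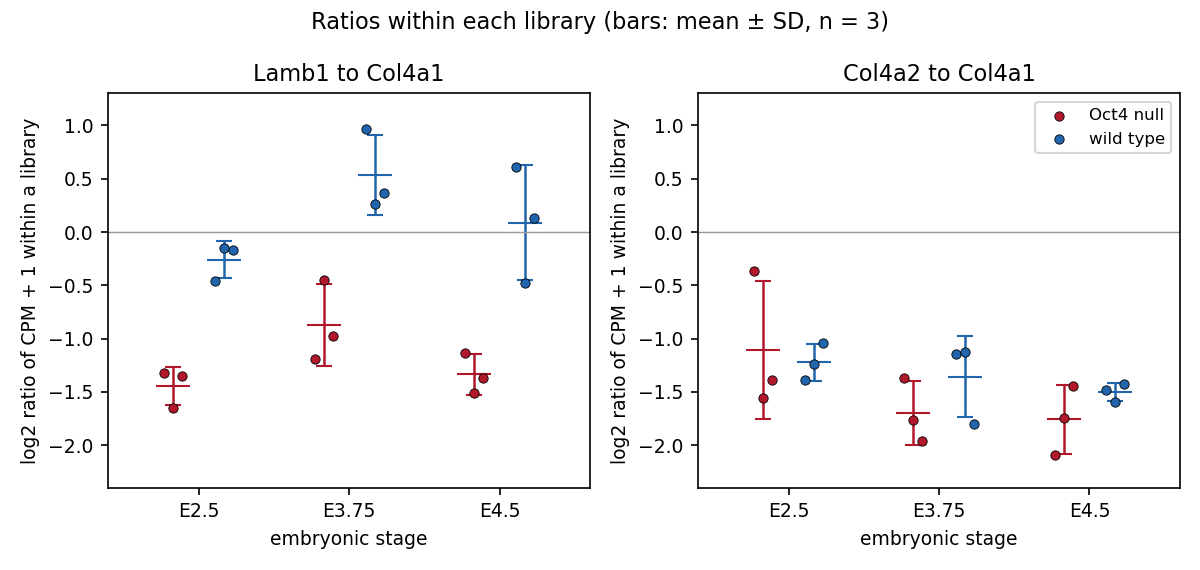
Log2 ratio of CPM + 1 within each library for Lamb1 to Col4a1 (left panel) and Col4a2 to Col4a1 (right panel) by stage, with Oct4 null libraries in red on the left of each pair and wild type libraries in blue on the right (points: libraries, bars: mean ± SD, n = 3). Within each stage all null libraries lie below all wild type libraries in the left panel, and the genotypes overlap in the right panel.

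The likeness of patterns across libraries was described by Pearson's r after the mean of the 6 libraries of a stage had been taken off each value, so it follows both genotype and library. Over the 12 libraries of E3.75 and E4.5, Lama1 was most like Dstn (r = 0.983), Lgals1 (0.981) and BC051665 (0.969) of 5882 genes. Lamb1 came 6th for Lama1 (0.965) and Sparc 27th (0.933). Sparc was most like Suclg1 (0.971), Lgals1 (0.964) and Arpc5 (0.958), with Lamb1 4th (0.957). Lamc1 came 199th for Lama1 (0.815) and 208th for Sparc (0.811). These r hold the genotype difference of each gene, so they do not show that the genes varied together within a genotype. Over all 18 libraries and 5430 genes, Lamb1 was most like Pou5f1 itself (r = 0.946), Htra1 (0.924) and Suclg1 (0.921). Null libraries lay below wild type libraries for both Lamb1 and Pou5f1 at every stage.

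Lamc1 was most like Gga2 (0.922), Ddx39b (0.851) and Cbx5 (0.847) over those 18 libraries, with Lamb1 4th (0.845). Col4a1 was most like Cyp2s1 (0.895), Slc5a6 (0.846) and Ube2e3 (0.842), and its r with Lamb1 was -0.844. Col4a2 was most like Ube4b (0.879), Map2k1 (0.814) and Plekhf1 (0.795). Col4a1 and Col4a2, which pair in 1 trimer and share a start region, had an r of 0.331, and Col4a2 was 1122nd of 5430 genes in likeness to Col4a1. Points share libraries, depth and genotype, so these values only describe the tables.

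Few other laminin or collagen IV chains were present, with 3, 2 and 3 of 12 at the 3 stages in order, and none passed. Lama5, the alpha chain of many epithelial laminins, had 65.1 ± 2.37 CPM in null and 69.4 ± 9.19 CPM in wild type embryos at E3.75 (SD, n = 3 each), and 64.9 ± 13.7 and 78.5 ± 12.7 CPM at E4.5 (adjusted p = 0.544, limma). Lama3, an alpha chain of the skin laminin, had an adjusted p of 0.694 at E3.75, and Lamb2, a second beta chain, one of 0.646 at E2.5. The median difference of the chains present was -0.25, -0.13 and -0.28 at the 3 stages.

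Of 20 other basement membrane and matrix proteins 4, 7 and 6 were present, and 1 passed, at E3.75, where 8.2% of all genes did. Fbln1, a fibulin of basement membranes, fell to 13.3 ± 3.55 CPM in null embryos, against 28.0 ± 2.02 CPM in wild type embryos (SD, n = 3 each; -1.06, adjusted p = 0.0384, limma). Nid1, which links laminin to collagen IV and is named here after its values were seen, had 10.1 ± 2.36 CPM in null and 20.2 ± 6.39 CPM in wild type embryos at E3.75 (-0.91, adjusted p = 0.136, limma). Its lowest null library had 7.65 CPM, so Nid1 needed wild type libraries to pass the filter of about 10 CPM, which favoured this direction. The gene with the smallest p at E2.5 and at E4.5 was Tinagl1, a secreted matrix protein, with 434 ± 4.98 and 306 ± 39.0 CPM in null and wild type embryos at E2.5 (adjusted p = 0.0569, limma). Its sign was the other way at E4.5, with 478 ± 18.2 CPM in null and 625 ± 150 CPM in wild type embryos (adjusted p = 0.308, limma).

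Among 22 receptors of laminin and collagen and their cytoplasmic partners, 10, 11 and 9 were present, and 1 passed, at E3.75, where 8.2% of all genes did. Itga3, the alpha subunit of a laminin-binding integrin, fell to 27.4 ± 1.77 CPM in null embryos, against 48.5 ± 6.47 CPM in wild type embryos (SD, n = 3 each; -0.80, adjusted p = 0.0307, limma). The smallest p at E2.5 was that of Ddr2, a collagen receptor kinase (15.3 ± 2.48 CPM in null and 5.63 ± 0.16 CPM in wild type embryos, adjusted p = 0.0918, limma), and at E4.5 that of Sdc4, a syndecan (512 ± 20.6 and 422 ± 19.9 CPM, adjusted p = 0.227, limma). With wild type libraries below about 10 CPM, Ddr2 had a row at E2.5 only through its null libraries, so the filter fixed its direction. The median difference of the receptors was 0.10, 0.01 and 0.05 at the 3 stages, close to that of all genes.

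Collagen needs chaperones and hydroxylases before export, and 18, 17 and 17 of 30 such genes were present. At E3.75 1 rose and 1 fell, where 3.6% of all genes passed as higher and 4.6% as lower in null embryos. Hspa5, the general chaperone BiP of the endoplasmic reticulum, was at 762 ± 24.4 CPM in null and 562 ± 42.4 CPM in wild type embryos (SD, n = 3 each; 0.44, adjusted p = 0.00213, limma). Plod3, a lysyl hydroxylase that also adds sugars to collagen IV, was at 28.9 ± 6.56 CPM in null and 58.6 ± 18.3 CPM in wild type embryos (-0.98, adjusted p = 0.0148, limma). Plod1 had the smallest p at E2.5, with 182 ± 20.7 CPM in null and 116 ± 11.6 CPM in wild type embryos (adjusted p = 0.057, limma), and the prolyl hydroxylase gene P4ha1 at E4.5, with 9.26 ± 1.11 and 21.1 ± 3.34 CPM (adjusted p = 0.193, limma). Serpinh1, the collagen chaperone HSP47 and named after its values were seen, had 7.50 ± 2.56 CPM in null and 17.3 ± 7.13 CPM in wild type embryos at E3.75 (adjusted p = 0.128, limma), with overlapping libraries.

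Matrix proteases and their inhibitors were present for 5, 6 and 6 of 19 listed genes. Of all genes 0.593% passed at E2.5 and 8.2% at E3.75. At E2.5 Ctsb, a lysosomal cysteine protease, was higher, at 403 ± 46.7 CPM in null and 227 ± 34.6 CPM in wild type embryos (SD, n = 3 each; 0.83, adjusted p = 0.0239, limma). At E3.75 2 fell, the secreted serine protease Htra1 with 84.3 ± 21.2 CPM in null and 171 ± 82.9 CPM in wild type embryos (-0.94, adjusted p = 0.0133, limma), and the protease inhibitor Serpine2 with 24.3 ± 2.88 and 46.9 ± 10.1 CPM (-0.91, adjusted p = 0.0206, limma). Libraries of the 2 genotypes overlapped for Htra1 at E3.75 and not at E4.5, where it had 248 ± 44.5 CPM in null and 484 ± 133 CPM in wild type embryos (adjusted p = 0.125, limma). With the first 2 libraries of each group Fbln1, Itga3, Hspa5, Serpine2 and Ctsb did not pass, and Plod3 and Htra1 did.

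**Figure D4:**
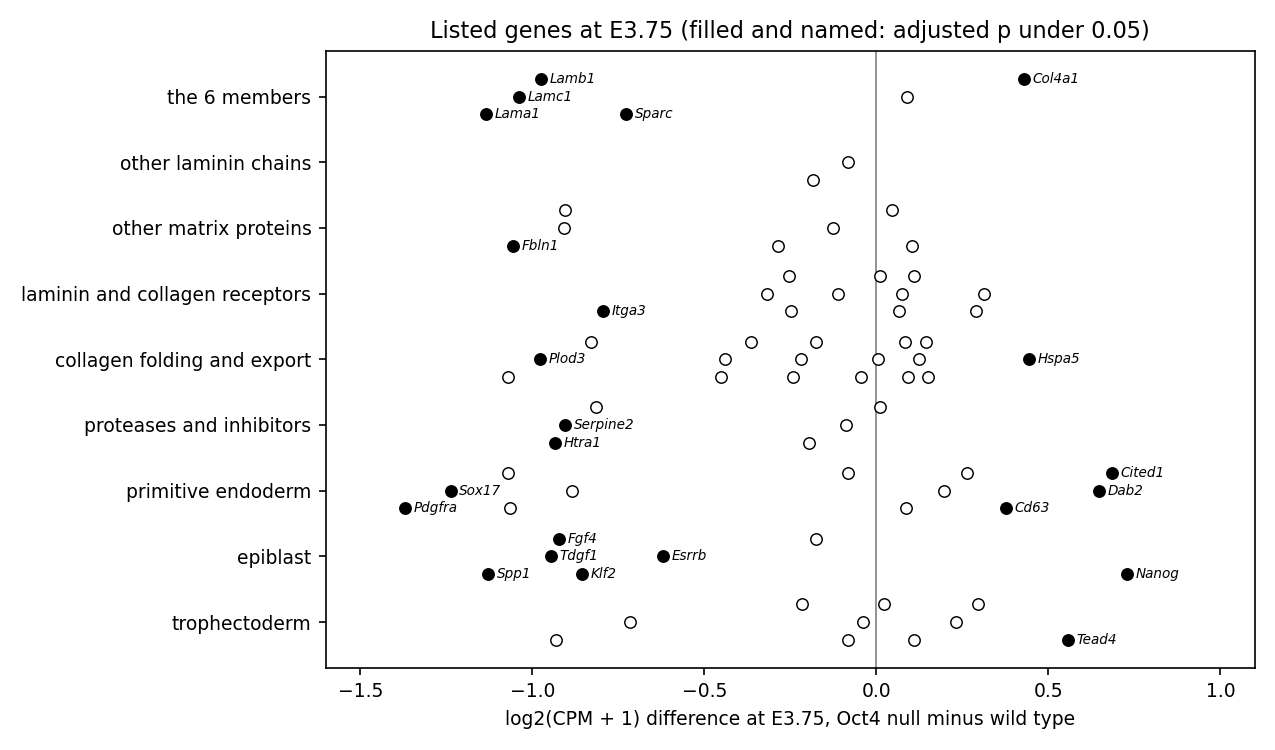
Difference between genotypes at E3.75 on the log2(CPM + 1) scale, Oct4 null minus wild type (horizontal axis), for every measured gene of 9 lists (rows, each spread over 3 heights for legibility). Filled, named points passed at an adjusted p under 0.05 (limma) and open points did not. Of the 6 basement membrane genes 5 are filled, and of the other matrix, receptor, processing and protease lists 1, 1, 2 and 2 genes are. Among all genes of that stage 8.2% passed.

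Markers of the cell types that could supply these transcripts also differed at E3.75. Of 17 primitive endoderm markers 12 were present, of which 3 were higher and 2 lower, beside 3.6% and 4.6% of all genes. The surface receptor gene Pdgfra fell to 9.73 ± 3.52 CPM in null embryos, against 26.2 ± 6.83 CPM in wild type embryos (SD, n = 3 each; -1.37, adjusted p = 0.0196, limma), and the transcription factor gene Sox17 to 15.9 ± 5.76 CPM, against 37.4 ± 6.83 CPM (-1.24, adjusted p = 0.0132, limma). The endocytic adaptor gene Dab2 (0.65), Cited1 (0.68) and the tetraspanin gene Cd63 (0.38) were higher, with adjusted p of 3.16e-05, 0.00158 and 0.00314 (limma). Gata6, the earliest of the defining factors, had 143 ± 11.7 CPM in null and 135 ± 4.52 CPM in wild type embryos (adjusted p = 0.744, limma), and Gata4 had 8.51 ± 2.71 and 20.1 ± 10.7 CPM (adjusted p = 0.121, limma). With null means below 10 CPM, Pdgfra and Gata4 needed wild type libraries to pass the filter of about 10 CPM, which favoured their direction.

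The summed level of the listed primitive endoderm markers was 3276 to 3332 CPM in null and 2401 to 2651 CPM in wild type libraries at E3.75. Most of that sum came from the abundant genes Dab2, Cited1, Cd63 and Lrp2, and of the 12 markers 6 were higher and 6 lower in null embryos, with a median difference of 0.00. Dab2, Cited1, Cd63 and Lrp2 already had wild type means of 622, 1009, 644 and 196 CPM at E2.5, before the blastocyst. Whether the sum follows the number of primitive endoderm cells was not tested. The sum was 3162 to 3455 CPM in null and 2567 to 2774 CPM in wild type libraries at E2.5, where 7 of 17 were present. Cited1 was higher there (0.61, adjusted p = 0.0252, limma), as were 0.409% of all genes, a call lost with the first 2 libraries of each group. At E4.5 the sum was 2321 to 2723 CPM in null and 1970 to 2474 CPM in wild type libraries, with 11 of 17 present and none past the threshold in limma (smallest adjusted p 0.136, for Cited1). Of those 11 markers 4 were higher and 7 lower, with a median difference of -0.33. Gata4 (-0.95), Pdgfra (-0.95), Fgfr2 and Amn were lower without overlap, as were 9.99% of all genes. Cited1 and Dab2 were higher without overlap, as were 12.2% of all genes. Amn, with 7.53 ± 6.58 CPM in null embryos, needed wild type libraries to pass the filter of about 10 CPM, which favoured its direction. Pdgfra, with 7.36 ± 2.28 CPM in null embryos, passed the filter of about 10 CPM there only through its wild type libraries, which fixed its direction. Of 6 parietal endoderm markers 1, 1 and 2 were present, Nid1 among them at each stage, and none passed. The part of these cells in the laminin differences was not tested.

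Of 9 epiblast markers 7 were present at E3.75, where 8.2% of all genes passed. Nanog was higher (0.73, adjusted p = 0.000566, limma) and 5 were lower, Spp1 (-1.13), Tdgf1 (-0.95), Klf2 (-0.86), Fgf4 (-0.92) and Esrrb (-0.62). The sum of the epiblast markers was 750 to 814 CPM in null and 801 to 948 CPM in wild type libraries at E3.75, and 468 to 496 CPM in null and 715 to 845 CPM in wild type libraries at E4.5. Spp1 had the smallest p of the 8 present at E4.5 (adjusted p = 0.0611, limma), and Esrrb of the 5 at E2.5 (adjusted p = 0.459, limma). Trophectoderm markers were present for 8, 10 and 10 of 10. At E2.5 0.593% of all genes passed. Hand1 was higher in null embryos at E2.5 (0.96, adjusted p = 0.0101, limma), which was lost with the first 2 libraries of each group, and Tead4 was higher at E3.75 (0.56, adjusted p = 0.00931, limma), and Hand1 had the smallest p at E4.5 (adjusted p = 0.146, limma). Cdx2, a defining trophectoderm factor, had 543 ± 44.3 CPM in null and 558 ± 43.5 CPM in wild type embryos at E3.75 (adjusted p = 0.85, limma). With the first 2 libraries of each group Pdgfra, Sox17, Dab2, Cited1, Nanog, Spp1 and Tdgf1 passed at E3.75, while Cd63, Klf2, Fgf4, Esrrb and Tead4 did not.

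Flushed embryos can carry maternal cells, and stroma and endothelium make much collagen IV. Of 16 markers of maternal blood, stroma, endothelium and genital tract 4, 3 and 3 were present. The stromal and vascular genes Col1a1, Col1a2, Col3a1, Dcn, Lum, Cdh5 and Kdr were in none of the 3 tables, and Pecam1 was in that of E2.5 only, at 15.3 ± 5.80 CPM in null and 5.31 ± 2.46 CPM in wild type embryos (SD, n = 3 each; adjusted p = 0.117, limma). Pecam1 passed the filter of about 10 CPM only through its null libraries, which fixed its direction. Of the 3 globin genes measured 2 were higher in null embryos at E3.75, as were 3.6% of all genes. Hba-a1 had 62.8 ± 28.4 CPM in null and 24.0 ± 4.29 CPM in wild type embryos (adjusted p = 0.0052, limma), and Hbb-bs 199 ± 94.7 and 93.5 ± 24.9 CPM (adjusted p = 0.00818, limma), with overlapping libraries for Hbb-bs. Hbb-bt did not pass (48.8 ± 28.6 and 24.1 ± 2.66 CPM, adjusted p = 0.136, limma), and all 3 have near-identical copies that may share reads. The sum of the list was 176 to 474 CPM in null and 115 to 177 CPM in wild type libraries at E3.75, 1088 to 1353 and 1029 to 1440 CPM at E2.5, and 148 to 1085 and 149 to 268 CPM at E4.5. Whether blood cells had a part in the level of Col4a1 was not tested.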

How the data were processed

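Each stage has its own table, deposited by the authors in CPM that sum to 1000000 over the genes listed for a library. The tool edgeR and the build mm9 appear in the submitters' processing notes. The sources used here name no aligner, counter, strand setting or gene models. Low genes had been removed before deposit. Gene symbols came from a reference table by identifier (6968 of 7082, 6546 of 6648 and 6443 of 6545 genes), and promoter windows from RefSeq (GRCm38.p6), which held 4 of the 6 members.

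All 121650 values were whole multiples of 1 read (within 0.01 reads), worth 0.5202 to 2.74 CPM, and depth comes from these reads. Intervals and p-values cover the spread between libraries. The 18 libraries were grouped by the labels' genotype and stage. The main test was limma 3.58.1 (in R 4.3.3) on log2(CPM + 1), stage by stage, with a variance trend, two-sided, with Benjamini-Hochberg adjustment over all genes and a threshold of 0.05. A difference on this scale understates that of low genes. Stage differences of the genotype effect were contrasts over 12 libraries. Within-library ratios were tested by exact permutation. The fits were also run on simulated reads, drawn independently for each library, a setting that does not cover libraries that are mixes of others.

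The results were computed again without each library in turn, with libraries 1 and 2 of every group only, after scaling by TMM or by DESeq2 size factors, with 0.1 or 5 as the pseudocount, for genes of at least 10 CPM on average, on thinned reads, with a replicate block, and edgeR 4.0.16 and DESeq2 1.42.0 on the recovered reads. Joint fits of E3.75 and E4.5, list counts with the first 2 libraries and the Lamb1 to Col4a1 ratio were added after seeing the data.

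The 6 members and all gene lists were chosen with earlier results of these data known. Named genes are the members, Pou5f1, up to 4 genes of each list and stage that passed (or the 1 with the smallest p), and the 3 most alike in pattern. Pdgfra, Gata4, Gata6, Fgf4, Esrrb, Cdx2, Nid1 and Serpinh1 at E3.75 and the values of Lama5 there were added after their values were seen.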

Additional observations from a re-analysis of the deposited data

How the results depend on the processing

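Lama1 and Lamb1 at E3.75 kept their direction and call under all 17 alternatives run for each, and the other members' directions at each stage held except for Col4a2 at E3.75, which turned to -0.079 with the first 2 libraries of each group, -0.0163 with thinned reads and ranged from -0.13 to 0.22 when 1 library was left out. The counts moved most at E2.5 and E4.5. At E2.5 42 genes passed on the deposited scale, 1 with the first 2 libraries, 99 with TMM factors, 93 with DESeq2 size factors, 179 in edgeR and 238 in DESeq2, and 1 to 773 when 1 library was left out (1 without any null library, 390 without wild type library 1, 773 without 2 and 9 without 3). The count of members there, 0, was 1 (Lamb1) with TMM factors, DESeq2 size factors, edgeR and DESeq2, and 0 to 1 when 1 library was left out (Lamb1 without wild type library 1 or 2). At E3.75 545 genes (8.2% of 6648) became 155 with the first 2 libraries, 307 in DESeq2 (10.5% of the 2910 that it gave an adjusted p) and 221 of 5882 in a joint fit with E4.5. The count was 209 to 652 when 1 library was left out, lowest without wild type library 3 and next without null library 1 (221) and 3 (287). The 5 members became 2 with the first 2 libraries, 4 in DESeq2, which gave Lamc1 no adjusted p, 4 with thinned reads and 4 in the joint fit (Col4a1 lost in both), and 2 to 5 when 1 library was left out. At E4.5 0 genes became 2 with TMM factors, 1 with a pseudocount of 5, 42 in edgeR, 112 in DESeq2, 7 with thinned reads, 189 in the joint fit and 0 to 120 when 1 library was left out (120 without null library 1). The 0 members became 2 in edgeR, 3 in DESeq2, 1 with thinned reads (Lama1), 3 in the joint fit (Lama1, Lamb1 and Lamc1) and 0 to 2 when 1 library was left out. At E4.5 too DESeq2 gave Lamc1 no adjusted p.

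Differences near 0 turned sign. From E3.75 to E4.5 the change of the genotype effect was -0.0032 for Lamb1 with a pseudocount of 5 and -0.10 with TMM factors, and -0.0819 for Col4a1 with TMM factors, and from E2.5 to E4.5 it was -0.0272 for Col4a1 with TMM factors. When 1 library was left out, the change from E3.75 to E4.5 ranged from -0.40 to 0.10 for Lama1, -0.19 to 0.16 for Lamb1, -0.22 to 0.24 for Lamc1, -0.0783 to 0.143 for Col4a1, -0.022 to 0.321 for Col4a2 and -0.048 to 0.316 for Sparc. For Col4a1 it ranged from -0.10 to 0.15 from E2.5 to E3.75 and -0.0766 to 0.175 from E2.5 to E4.5. The Lamb1 to Lamc1 ratio differed by -0.0609 at E3.75 with a pseudocount of 5 and, when 1 library was left out, by -0.0266 to 0.212 at E3.75 and -0.24 to 0.34 at E4.5. The Col4a2 to Col4a1 ratio at E2.5 ranged from -0.25 to 0.34. The cause of these changes was not tested, and in fits without a library fewer samples were used.

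The labels do not say whether null and wild type libraries of the same number belong together. The deviations of same-numbered libraries from their group means had r of 0.0371, 0.1211 and -0.003 at E2.5 and -0.0069, -0.0313 and 0.0101 at E3.75. Pairs of unlike number ranged from -0.0947 to 0.0867 at E2.5 and from -0.0228 to 0.031 at E3.75. With so few libraries these values cannot settle whether the samples were paired. With the replicate block 30 genes passed at E2.5 and 438 at E3.75, with 0 and 4 members, and the one member call to change was that of Col4a1 at E3.75 (adjusted p = 0.0594, limma). The block could not be fitted at E4.5, where the wild type columns carry no numbers. Oct4 null library 1 of E4.5 had the lowest depth, with each read equal to 2.74 CPM and 5 reads of Lamc1.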
